A study of Cucumis melo with 30 samples.

Results

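Of the 27427 genes counted in fruit of 2 oriental melon cultivars, 29 (0.106%) were higher in the cultivar YMR than in the cultivar HDB at every day sampled. They were chosen from these data. Counts were divided by the library total and multiplied by 1000000 (CPM), the 3 libraries of a group were averaged, and a gene was kept where (YMR mean + 1) / (HDB mean + 1) was at least 2 at each of days 5, 15, 25, 30 and 35. The difference between the cultivars is therefore what selected these genes. It is described here, and no test of it is taken as evidence. Oriental melon is a thin-skinned type of Cucumis melo, and anthesis, from which the days are counted, is the opening of the flower. The groups are fruit of HDB (strain HDB-OF in the labels) and of YMR (strain YMR-WF) at each of the 5 days, 10 groups of 3 libraries and 30 libraries in all. No treatment or engineered allele is named for either cultivar. The labels give the tissue as fruit and do not say which part was taken, whether fruits were pooled, or whether libraries of a group came from separate plants, so p-values cover only the spread between these samples, part of which may be technical.

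A melon fruit first grows by cell division, then by cell enlargement, and then ripens, when sugars build up, walls soften, aroma compounds form and the colour of rind and flesh changes. Cultivars of the species differ widely in each of these traits. A gene with a standing difference between cultivars can still be turned up or down as the fruit ages, so the level in each cultivar and its change with age are separate measurements. The files identify genes only by MELO3C numbers. None of the 29, and 0 of all 27427, matched the RefSeq gene table of assembly USDA_Cmelo_AY_1.0, so no name, function, position or sequence is given, and the fruit tissue could not be checked against marker genes.

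Library totals lay between 17299247 and 23261097 counts. The TMM factor, a correction for library composition that is used in the tests but not in the CPM values, ranged over the groups from a mean of 0.759 (YMR, day 25) to 1.2 (YMR, day 5). All 29 genes passed the low-count filter, as did 18426 of the 27427. In these bulk samples, fewer cells of a type and less RNA per cell cannot be told apart.

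The 29 genes were mostly low to moderate in level. The mean over the 15 YMR libraries ranged from 1.86 CPM (MELO3C011672) to 366 CPM (MELO3C014527), with a median of 9.73 CPM against 15.7 CPM for all 18426 tested genes. In 8 genes the YMR mean was at least 10 CPM at every day, and in 11 it was below 10 CPM at every day. Summed over the 29, HDB stood at 739 ± 132 CPM (SD, n = 3) on day 5 and at 183 ± 13 CPM on day 35, and YMR at 2261 ± 300 and 1200.1 ± 112 CPM. Genes of high level weigh most in these sums. In YMR the mean of MELO3C016558 went from 627 CPM on day 5 to 14.9 on day 35, and that of MELO3C014527 from 223 to 463. The sums also leave out the TMM factor, whose mean in YMR was 1.2 on day 5 and 0.907 on day 35. The genes fell into 3 sets by their level in HDB, a division made after the values had been seen. HDB had no count of 6 genes, stayed below 1 CPM at every day for 8, and reached at least 1 CPM on at least 1 day for 15. These 15 are called the genes read in HDB below, although the 8 also had some counts there.

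**Figure D1:**
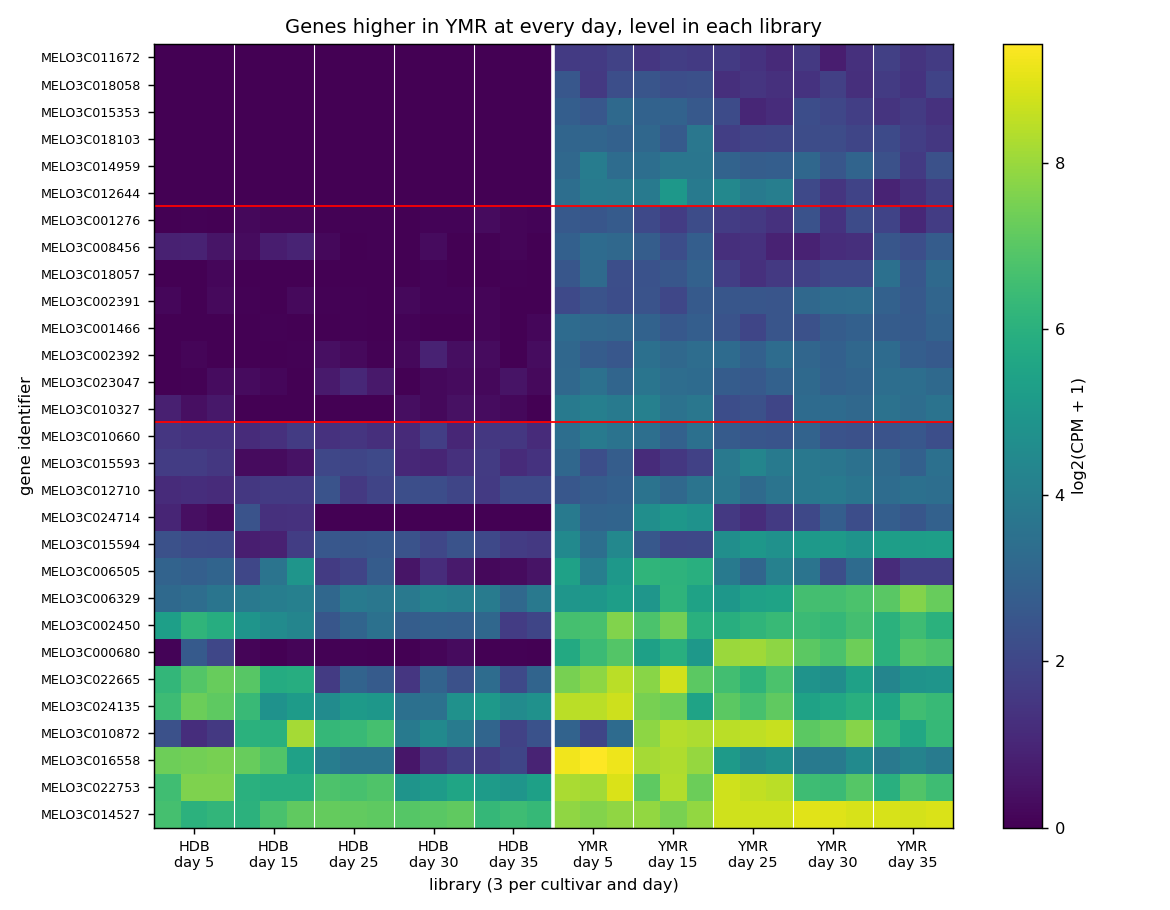
Level of each of the 29 genes (rows) in each of the 30 libraries (columns, 3 per cultivar and day), as log2(CPM + 1). Red lines separate, from the top, the 6 genes with no count in HDB, the 8 that stayed below 1 CPM there and the 15 that reached 1 CPM, and the thick white line separates the cultivars.

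Every YMR library was above every HDB library of the same day, at all 5 days, for 27 of the 29 genes, a pattern found in 0.488% of all tested genes. The exceptions were MELO3C010872 and MELO3C024135. edgeR called 27 of the 29 higher in YMR at all 5 days (0.467% of all tested genes), and did not call MELO3C010872 at days 5 and 15 or MELO3C022665 on day 5. On day 5 it called 10.4% of all tested genes higher in YMR, and on day 15 20.4%. Both counts of 27 genes concern the contrast that chose the genes, so the rule largely set them in advance. That they exceed the shares of all tested genes is no sign of enrichment, and they support nothing.

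The 6 genes without a count in any of the 15 HDB libraries were MELO3C012644, MELO3C014959, MELO3C018103, MELO3C015353, MELO3C018058 and MELO3C011672. A count of 0 over all 15 libraries allows a level of up to 0.0101 CPM, taken as 3 counts of the summed total and for counting error only. In YMR each of the 6 was read in all 15 libraries, with 14 counts in the poorest. These are genes read in 1 cultivar and not detectable at this depth in the other.

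MELO3C012644 was the highest of the 6. Its YMR libraries held 9.67, 13.9 and 13.2 CPM on day 5, 13.9, 31.7 and 14.0 on day 15, and 20.1, 13.8 and 15.4 on day 25. At day 30 they held 3.21, 1.71 and 2.68 CPM and on day 35 0.902, 1.40 and 2.31. Every library of the first 3 days was thus above every library of the last 2 days. Taking 3 counts summed over the HDB group as the floor, YMR was at least 225-fold higher on day 5; the bound for day 15 was 437-fold and that for day 35 29.8-fold. MELO3C014959 had 8.06, 14.6 and 9.11 CPM in the YMR libraries of day 5, 9.69, 12.1 and 12.1 on day 15, and 4.12, 2.0 and 4.03 on day 35. YMR was higher by at least 196-fold on day 5, and the day 15 and day 35 bounds were 247-fold and 63.7-fold. As HDB is at 0, each bound follows the number of reads in YMR. The other 4 genes had YMR group means between 1.37 and 8.52 CPM.

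The 8 genes below 1 CPM in HDB at every day had between 4 counts (MELO3C018057) and 91 counts (MELO3C008456) over the 15 HDB libraries. Together with the 6 above, these 14 genes summed to 10 to 31 counts in an HDB library and to 1051 to 2377 counts in a YMR library. The lowest HDB sum was in a library of day 35 and the highest in libraries of days 5 and 25. MELO3C010327 had, after MELO3C000680, the highest mean log2 ratio of the 29, 3.11 over the 5 days. In YMR it held 13.3, 15.7 and 13.7 CPM on day 5, 3.71, 4.0 and 2.90 on day 25, and 10.8, 9.40 and 11.0 on day 35. In HDB it had 29 counts on day 5, none at days 15 and 25, 14 on day 30 and 8 on day 35. In both cultivars its lowest level thus fell in the middle of the series, and on day 25 YMR was at least 76.8-fold higher.

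All 8 genes with at least 10 CPM in YMR at every day were among the 15 that reached 1 CPM in HDB. MELO3C014527 had the highest mean in YMR, where its libraries held 231, 206 and 234 CPM on day 5, 430.3, 432 and 434 on day 25 and 459.7, 448 and 480.0 on day 35. In HDB it held 99.6, 65.5 and 72.9 CPM on day 5, 145, 143 and 136 on day 25 and 77.4, 89.6 and 79.5 on day 35. Every HDB library of day 35 was below those of day 25. In YMR the order of these days turned with the scaling: the day 35 libraries were above those of day 25 in CPM, and below them, at 492 to 529 against 554 to 601, when libraries were scaled by TMM. MELO3C022753, second in level, held 299.8, 275 and 469.6 CPM in YMR on day 5, 431, 373 and 354 on day 25 and 61.5, 115 and 89.6 on day 35. Its HDB libraries held 92.1, 194 and 193 CPM on day 5, 112, 102 and 114 on day 25 and 35.6, 28.9 and 39.8 on day 35. In both cultivars the day 35 libraries were below those of days 5 and 25, and no YMR library of a day overlapped an HDB library of that day.

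MELO3C000680 had the widest gap, with a mean log2 ratio of 6.27 over the 5 days. Its YMR libraries held 51.6, 84.5 and 119.8 CPM on day 5, 39.5, 60.8 and 31.5 on day 15, 259, 267 and 224 on day 25, 131, 106 and 160.3 on day 30 and 63.7, 122 and 111 on day 35. The 3 HDB libraries of day 5 held 1, 101 and 53 counts, and the 12 later ones between 0 and 4. HDB thus read this gene on day 5, in replicates 2 and 3 far more than in replicate 1, and hardly after.

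**Figure D2:**
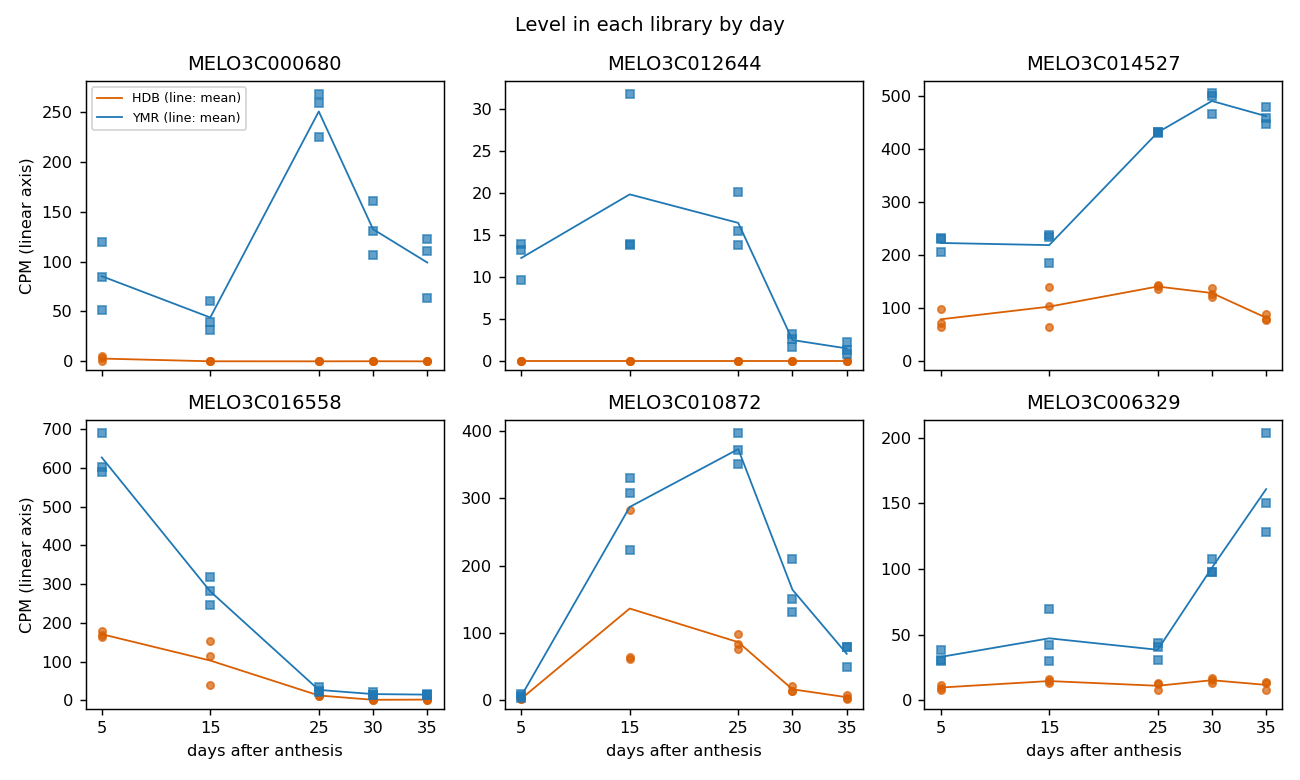
CPM in each library (points) and group mean (lines) against days after anthesis, for 6 of the 29 genes, on linear axes that differ between panels. YMR (blue squares) lies above HDB (orange circles) at all 5 days except for MELO3C010872, where 1 HDB library of day 15 reached 283 CPM and the libraries of day 5 overlapped.

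The ratio between the cultivars was of similar size at all days when taken over the 29 genes. Its median was 4.54 on day 5, 4.36 on day 15, 3.69 on day 25, 5.27 on day 30 and 5.26 on day 35. It was widest on day 15 for 9 genes, on day 35 for 7, on day 5 for 5 and at days 25 and 30 for 4 each. These medians and days can change with the scaling, as the ratios leave out the TMM factor. On day 25 the mean factor was 0.759 in YMR and 0.969 in HDB. For a gene with no count in HDB the ratio is the YMR level plus 1, so its course is that of YMR alone.

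Single genes differed in how steady the ratio was. In MELO3C012710 it stayed between 2.76 and 3.75, a range of 0.44 on the log2 scale, and in MELO3C011672 between 2.37 and 3.24, a range of 0.45. The widest ranges were those of MELO3C000680, from 22.8 on day 5 to 244 on day 25, and MELO3C012644, from 20.8 on day 15 down to 2.54 on day 35. Among the 15 genes read in HDB, the ratio was higher on day 35 than on day 5 in 10, and among the other 14 in 4. The split by HDB level was made after the values had been seen, and its effect on both counts was not tested. Of the 15, 7 had their highest HDB mean on day 5, and a higher HDB mean lowers the ratio of that day. In the other 14 HDB stayed below 1 CPM, so the ratio mostly follows YMR. MELO3C002450 went from 2.36 on day 5 through 4.69, 8.35 and 12.1 to 13.8 on day 35, and MELO3C010872 from 2.09 through 2.1, 4.28 and 9.48 to 12.3. These were the 2 genes whose ratio was wider at each later day, which for MELO3C010872 rests on 1 library: without replicate 3 of HDB day 15 its ratio on that day was 4.49, above the 4.28 of day 25. Whether the ratio changed with the day was not tested, since the rule used the same 5 differences.

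The genes nearest to the threshold were MELO3C010660, whose lowest ratio was 2.01 (day 35), and MELO3C008456, at 2.04 (day 30). Just outside lay MELO3C005099, at 1.92 (day 5), and MELO3C018495, at 1.84 (day 30). With 2 CPM added in place of 1, only 15 of the 29 genes would meet the rule, and with a ratio of at least 1.5 it would hold 60 genes.

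**Figure D3:**
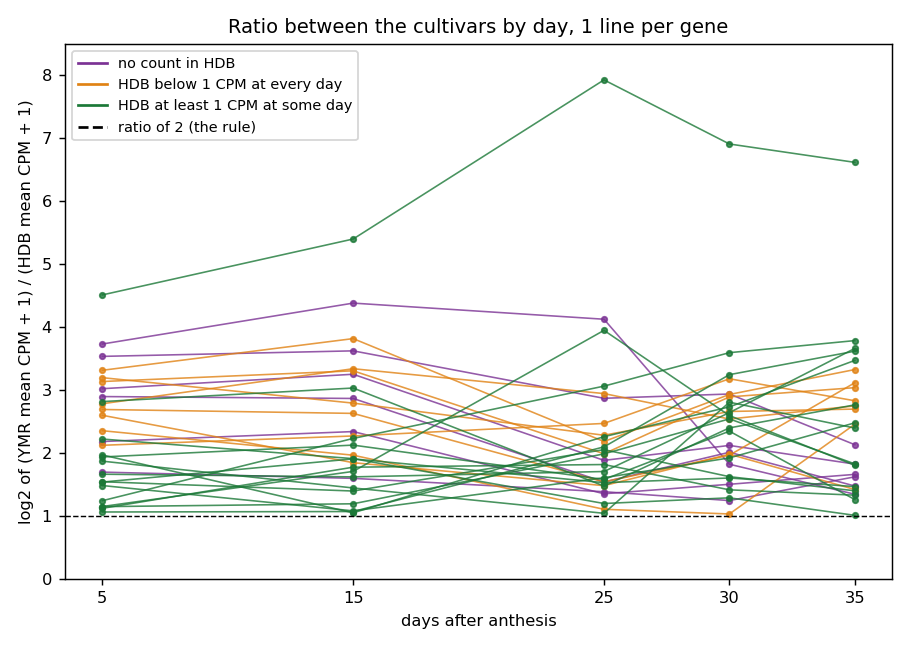
Log2 of (YMR mean CPM + 1) / (HDB mean CPM + 1) against days after anthesis, 1 line per gene, coloured by the level in HDB, with the rule's ratio of 2 as a dashed line. The top line is MELO3C000680, whose ratio reached 244 on day 25, and the purple line that drops after day 25 is MELO3C012644.

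The change with age inside 1 cultivar was not part of the rule and was tested with edgeR's quasi-likelihood test, with Benjamini-Hochberg adjustment over all 18426 genes. The rule does set limits on it. A ratio of at least 2 needs at least 1 CPM in YMR at every day, so a gene that YMR lost could not be chosen. In YMR, 8 of the 29 genes rose from day 5 to day 35 (33.1% of all tested genes rose) and 11 fell (42.3%). As shares of the 29 these were 27.6% and 37.9%, near the shares of all genes, and a difference from them was not tested. The median log2 change was -0.29 for the 29 and -0.19 for all tested genes. Scaled by total counts alone, 5 of the 29 rose and 12 fell.

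The 2 largest rises in YMR were those of MELO3C010872 and MELO3C006329. MELO3C010872 went from 6.97, 2.90 and 8.85 CPM on day 5 to 79.3, 49.0 and 79.1 on day 35, a change of 3.87 log2 units (SE 0.52, edgeR adjusted p = 5e-07), and had been higher in between, at 373 ± 23 CPM (SD, n = 3) on day 25. MELO3C006329 went from 30.3, 30.5 and 38.4 CPM on day 5 to 128, 204 and 151 on day 35, a change of 2.68 log2 units (SE 0.27, edgeR adjusted p = 5.7e-09). The day 5 and day 35 libraries did not overlap for either gene. The other 6 that rose were MELO3C015594, MELO3C014527, MELO3C012710, MELO3C002391, MELO3C015593 and MELO3C018057, with log2 changes between 0.86 and 1.54.

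The 2 largest falls in YMR were those of MELO3C016558 and MELO3C006505. MELO3C016558 fell from 602, 689 and 588 CPM on day 5, the highest group level of any of the 29 genes, to 12.9, 17.4 and 14.2 on day 35, a change of -4.99 log2 units (SE 0.41, edgeR adjusted p = 1.8e-10). MELO3C006505 fell from 40.6, 15.3 and 31.5 CPM to 1.24, 2.38 and 2.40, a change of -3.45 log2 units (SE 0.59, edgeR adjusted p = 1.4e-05). Both were above HDB on day 35, which the rule required of the group means. The HDB libraries of that day held 0.925 to 2.91 CPM of the former and 0.154 to 0.405 CPM of the latter. Of the 6 genes with no count in HDB, 4 fell in YMR (42.3% of all tested genes) and none rose (33.1%). The 4 were MELO3C012644, MELO3C015353, MELO3C014959 and MELO3C018103, with log2 changes between -2.57 and -1.09. With 6 genes set apart after the values had been seen, a difference from all genes was not tested. The 2 others, MELO3C011672 and MELO3C018058, had changes of 0.29 and -0.31 that were not called.

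In HDB, 3 of the 29 genes rose from day 5 to day 35 (36.2% of all tested genes) and 10 fell (43.1%). As shares of the 29 these were 10.3% and 34.5%. The 6 genes with no count there cannot be called in either direction. Calls on the 8 genes below 1 CPM rest on few reads: 2 of the 3 rises, MELO3C001276 and MELO3C001466, went from 1 to 7 and from 0 to 4 counts summed over 3 libraries. Without replicate 2 of HDB day 35 the number that rose was 6, and in a fit of the 6 compared libraries alone 1 rose and 6 fell.

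Among the 15 genes read in HDB, 1 rose and 8 fell there, with a median log2 change of -2.02, while in YMR 6 of the same 15 rose and 6 fell, with a median of -0.29. The medians of all tested genes were -0.15 and -0.19. The 15 were set apart by their HDB level after the values had been seen, and whether this shapes the counts was not tested. In HDB 7 of them had their highest mean on day 5 (35.7% of all tested genes). The rule also used the day 5 and day 35 differences between the cultivars, so the contrast between HDB and YMR is a description and was not tested. MELO3C016558 fell furthest in HDB among genes with more than 3 counts on day 35, from 164, 169 and 180 CPM on day 5 to 2.20, 2.91 and 0.925 on day 35, a change of -6.20 log2 units (SE 0.46, edgeR adjusted p = 2.6e-11). MELO3C006505 fell from 7.06, 6.23 and 7.32 CPM to 0.154, 0.208 and 0.405, a change of -4.55 log2 units (SE 0.81, edgeR adjusted p = 2.3e-05). Neither gene's day 35 libraries came near those of day 5. MELO3C000680 went from 155 counts to 1, a ratio of 159 (exact 95% interval for counting error 28.1 to 6312; edgeR adjusted p = 0.00014), and MELO3C024714 from 26 counts to none, at least 8.88-fold lower (edgeR adjusted p = 0.0017). In YMR the same 2 genes had log2 changes of 0.61 and -0.29, neither of them called. The rise in HDB among these 15 was that of MELO3C012710, from 1.28 ± 0.073 to 2.84 ± 0.68 CPM (SD, n = 3; log2 change 1.33, SE 0.24, edgeR adjusted p = 2.2e-05). Its change in YMR was 1.17.

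The cultivars share no library in these tests, so their calls can be set side by side. MELO3C012710 rose in both (26.1% of all tested genes did so) and 5 genes fell in both (34.5%): MELO3C016558, MELO3C022665, MELO3C006505, MELO3C024135 and MELO3C022753. These 6 were 46.2% of the 13 genes called in HDB and 31.6% of the 19 called in YMR. For all tested genes the shares were 76.5% and 80.4%. The 6 genes with no count in HDB have no place in the overlap, and of the 15 genes read in HDB the shares were 66.7% of 9 and 50% of 12. MELO3C001276, whose HDB rise rests on 1 and 7 counts, was the only gene called in opposite directions (3.78% of all tested genes). That call was absent with DESeq2, with a minimum of 2-fold, in a fit of the compared groups alone, and without replicate 1 or 3 of HDB day 5 or replicate 2 of YMR day 35 (0 genes each). Without replicate 1 of HDB day 5 or replicate 2 of HDB day 35, 3 genes rose in both.

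**Figure D4:**
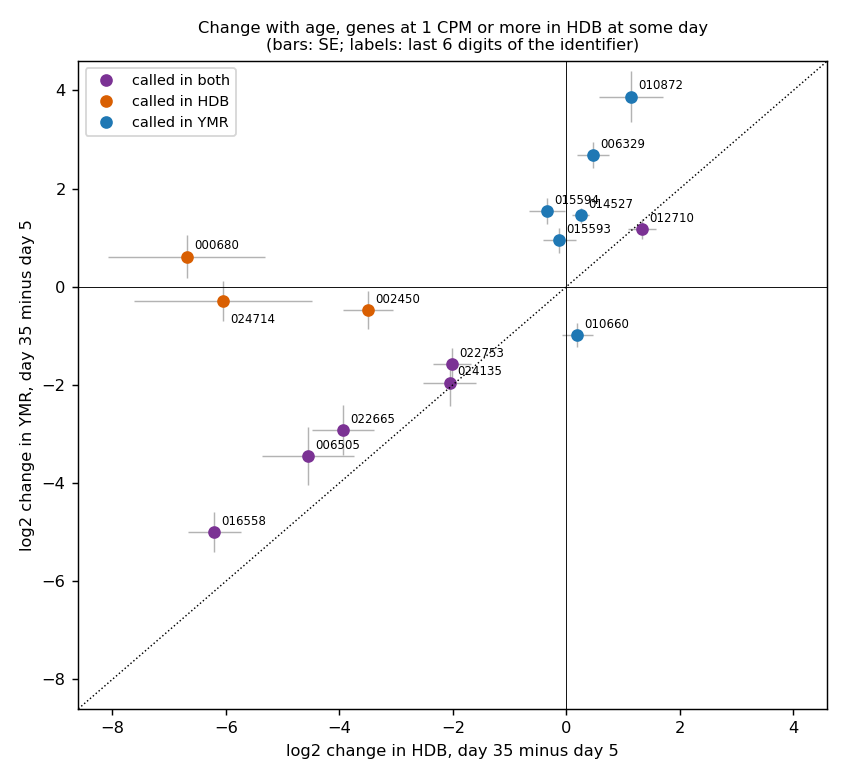
Log2 change from day 5 to day 35 in HDB (horizontal) and YMR (vertical) for the 15 genes that reached 1 CPM in HDB, with standard errors as bars, coloured by where edgeR called a change; the dotted line marks equal changes. The 5 genes that fell in both lie at the lower left, and MELO3C000680, MELO3C024714 and MELO3C002450, called as falling in HDB and not called in YMR, lie left of the line.

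MELO3C002450, 1 of these 3 genes, was read in all 30 libraries. In HDB its libraries held 38.7, 70.6 and 57.4 CPM on day 5, 4.68, 7.30 and 10.5 on day 25 and 7.85, 2.18 and 2.95 on day 35, a change of -3.50 log2 units (SE 0.45, edgeR adjusted p = 2.3e-07). In YMR they held 99.8, 101 and 197 CPM on day 5, 59.3, 70.3 and 80.5 on day 25 and 63.4, 90.7 and 63.2 on day 35, a change of -0.48 (SE 0.38, edgeR adjusted p = 0.26). All 3 HDB libraries of day 35 lay far below those of day 5. In CPM, all 3 YMR libraries of day 35 also lay below their day 5 range, by less. This YMR order depends on the scaling, as the mean TMM factor in YMR was 1.2 on day 5 and 0.907 on day 35. That the changes of the 2 cultivars differ was not tested, because this difference is made of values the rule used.

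Between neighbouring days, 21 of the 29 genes were called on at least 1 step in YMR (92.7% of all tested genes) and 17 in HDB (92.8%), where 6 of the 29 had no count and could not be called. Of the 15 genes read in HDB, 13 were called on a step there. From day 5 to day 15, 5 genes rose (28.5% of all tested genes) and 4 fell (28.9%) in YMR, and 4 rose (28.8%) and 7 fell (30.7%) in HDB. MELO3C010872 rose most in both. It went from 6.97, 2.90 and 8.85 CPM to 224, 329.8 and 308 in YMR, a change of 5.61 log2 units (SE 0.56, edgeR adjusted p = 1.8e-08). In HDB it went from 4.06, 1.36 and 1.99 CPM to 64.7, 61.6 and 283, a change of 5.81 (SE 0.58, edgeR adjusted p = 2.1e-08), so that replicate 3 of HDB day 15 lay within the YMR range. Falls over this step included MELO3C022753 in HDB, from 159.7 ± 58 to 59.3 ± 2.5 CPM (SD, n = 3; log2 change -1.42, SE 0.33, edgeR adjusted p = 0.00072). The HDB count of 4 rises was 2 without replicate 3 of day 15, and the YMR count of 5 was 3 without replicate 2 of day 5 or of day 15, and 3 with 5 falls under total-count scaling.

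From day 15 to day 25, 7 of the 29 rose (32.4%) and 7 fell (35.0%) in YMR, and 7 rose (32.0%) and 6 fell (39.0%) in HDB. MELO3C015593 rose most in YMR among genes of at least 10 CPM, from 1.26, 1.86 and 2.52 CPM to 13.0, 18.5 and 13.7 (log2 change 3.59, SE 0.29, edgeR adjusted p = 1.2e-10). MELO3C024714 fell most, from 24.4, 31.0 and 26.7 CPM to 1.98, 1.32 and 2.04 (log2 change -3.37, SE 0.46, edgeR adjusted p = 3.4e-06), and in HDB went from 156 counts to none, at least 51.8-fold lower. In both cultivars its highest mean was that of day 15. MELO3C022665 fell in HDB from 125, 54.3 and 58.2 CPM to 2.14, 7.08 and 5.50 (log2 change -3.81, SE 0.55, edgeR adjusted p = 1.8e-06), while MELO3C022753 rose there from 59.3 ± 2.5 to 109 ± 6.5 CPM (SD, n = 3; log2 change 1.10, SE 0.32, edgeR adjusted p = 0.0045). Under total-count scaling 5 of the 29 rose and 13 fell in YMR over this step, where the median change of all genes went from -0.07 to -0.66.

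From day 25 to day 30, 2 genes rose (19.6%) and 6 fell (25.4%) in YMR, and 1 rose (19.7%) and 6 fell (22.1%) in HDB. MELO3C006329 rose in YMR from 30.7, 41.0 and 43.9 CPM to 97.3, 97.7 and 108, a change of 1.24 log2 units (SE 0.26, edgeR adjusted p = 0.00052). MELO3C012644 went there from 16.5 ± 3.3 to 2.53 ± 0.76 CPM (SD, n = 3), a change of -2.85 log2 units (SE 0.41, edgeR adjusted p = 5.8e-05). In HDB, MELO3C016558 fell from 15.1, 11.3 and 11.5 CPM to 0.487, 1.54 and 2.36 (log2 change -3.15, SE 0.45, edgeR adjusted p = 8e-06). The single HDB rise was that of MELO3C010327, from 0 to 14 counts, and it was not called in a fit of the compared groups alone. Total-count scaling gave 4 rises and 5 falls in YMR, RLE size factors 3 and 5, and leaving out replicate 1 of YMR day 30 gave 3 falls.

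The last step moved few of the genes. From day 30 to day 35, 2 rose (14.3%) and 3 fell (16.3%) in YMR. In HDB 0 rose (14.6%) by edgeR, by DESeq2 and at an unadjusted p under 0.05, and 2 fell (12.9%). MELO3C006505 fell in YMR from 11.3, 3.81 and 8.95 CPM to 1.24, 2.38 and 2.40 (log2 change -2.08, SE 0.59, edgeR adjusted p = 0.0095), and MELO3C010872 fell in HDB from 13.8, 21.2 and 14.2 CPM to 7.38, 2.60 and 4.16 (log2 change -1.80, SE 0.51, edgeR adjusted p = 0.01). The former call was lost without replicate 1 of YMR day 30 (edgeR adjusted p = 0.056) and the latter without replicate 2 of HDB day 35 (edgeR adjusted p = 0.055), which also left 1 fall in HDB. In YMR 1 gene fell without replicate 1 or 3 of day 30 or replicate 2 of day 35, and 1 rose without replicate 1 of day 30 or of day 35.

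**Figure D5:**
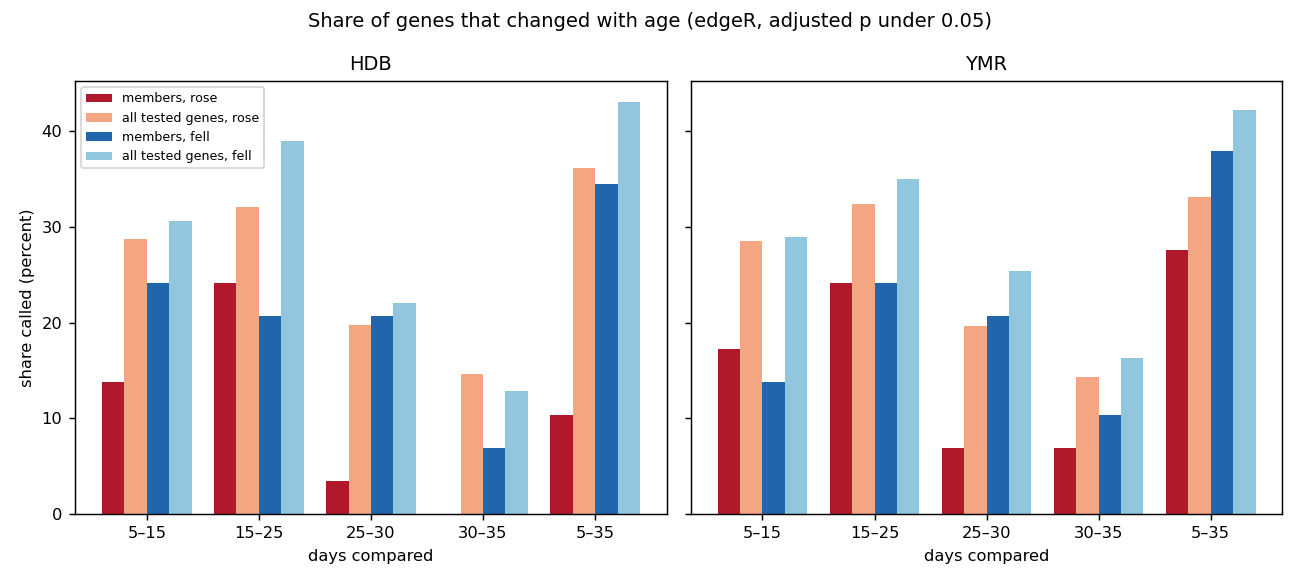
Share in percent of the 29 genes (dark bars) and of all 18426 tested genes (pale bars) that rose (red) or fell (blue) by edgeR at an adjusted p under 0.05, for each step and for day 5 to day 35, in HDB (left) and YMR (right). The bars of the 29 genes are lower than those of all genes in each pair, but in HDB they include 6 genes that could not be called and 8 below 1 CPM. Of the 15 genes read there, 53.3% fell and 6.67% rose from day 5 to day 35, against 43.1% and 36.2% of all genes. The 15 were set apart by their HDB level after the values had been seen, and whether this shapes their shares was not tested.

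The day of the highest YMR mean was day 5 for 10 of the 29 genes, day 15 for 9, day 25 for 4, and days 30 and 35 for 3 each. Of all tested genes, 40.3% had their highest YMR mean on day 5, 26.2% on day 15, 9.67% on day 25, 10.1% on day 30 and 13.7% on day 35. In CPM the genes with a late highest mean were MELO3C012710, MELO3C002391 and MELO3C014527 on day 30, and MELO3C015594, MELO3C006329 and MELO3C018057 on day 35. These days depend on the scaling. With TMM-scaled libraries 8, 7, 6, 3 and 5 genes were highest on days 5, 15, 25, 30 and 35. The shares of all tested genes were then 31.6%, 19.8%, 19.0%, 14.5% and 15.1%. MELO3C023047 and MELO3C011672 moved to day 35, MELO3C012644 and MELO3C002392 to day 25 and MELO3C015353 to day 15. In HDB, 0 of the 15 genes read there had their highest mean CPM on day 35 (17.1% of all tested genes) and 7 had it on day 5 (35.7%). With TMM-scaled libraries MELO3C010660 was highest on day 35.

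The median coefficient of variation of the 29 genes within a YMR group was 19.7%, against 14.9% for all tested genes. In YMR day 15, replicate 2 was the highest of the 3 libraries for 8 of the 15 genes read in HDB, and in YMR day 5 replicate 3 was the highest for 9. Other groups gave like numbers. Replicate 3 of HDB day 15, of YMR day 25 and of YMR day 30 and replicate 2 of YMR day 35 were highest for 8 each. Replicate 1 of HDB day 35 was highest for 9. The same share over all genes was not measured, so none of these replicates is shown to be unusual. MELO3C022665 (217, 435 and 132 CPM), MELO3C022753 (136, 323 and 156 CPM) and MELO3C012644 (13.9, 31.7 and 14.0 CPM) were each highest in replicate 2 of YMR day 15. Without replicate 3 of YMR day 5, 25 of the 29 genes still met the rule; MELO3C002450, MELO3C010872, MELO3C022665 and MELO3C022753 did not.

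Of the 29 genes, 6 stood next to another of the 29 in the deposited table and carried consecutive numbers. The pairs were MELO3C002391 with MELO3C002392, MELO3C015593 with MELO3C015594, and MELO3C018057 with MELO3C018058. Over the whole table, consecutive numbers were found in 50.6% of adjacent rows. That share concerns the numbering of rows and is no measure of how often 29 genes would stand side by side, which was not tested. What the order of rows stands for is not given in the sources used here. In HDB the paired genes had 19 and 46 counts over the 15 libraries for the first pair, 488 and 957 for the second, and 4 and 0 for the third.

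Both genes of the second pair fell from day 5 to day 15 and rose from day 15 to day 25 in HDB and in YMR. MELO3C015594 held 21.2, 9.73 and 20.1 CPM in YMR on day 5, 5.09, 2.98 and 3.17 on day 15 (log2 change -2.12, SE 0.29, edgeR adjusted p = 1.6e-06), 24.5, 31.0 and 26.6 on day 25 and 38.0, 36.8 and 37.9 on day 35. MELO3C015593 held 7.80, 3.79 and 5.87 CPM on day 5 and 8.69, 6.48 and 10.3 on day 35, with its highest mean, 15.0 CPM, on day 25. Both were lowest on day 15. In YMR neither was called on a step after day 25; in HDB MELO3C015593 fell from day 25 to day 30. From day 5 to day 35 in YMR the log2 changes were 1.16 for MELO3C002391 and 0.53 for MELO3C002392, 0.95 for MELO3C015593 and 1.54 for MELO3C015594, and 0.86 for MELO3C018057 and -0.31 for MELO3C018058. Differences within a pair were not tested. Whether reads were split between near-identical copies could not be seen from counts, so values of neighbouring genes carry that uncertainty.

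Rows beside the 29 genes were also looked at. Of 52 neighbouring genes that are not among the 29, 36 were tested. A ratio of at least 2 was reached on at least 1 day by 8 of the 36 (22.2%, against 17.2% of all tested genes) and on 3 or more days by 0 of 36 (2.6% of all tested genes).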

How the data were processed

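Total RNA from fruit was made into cDNA libraries by a standard Illumina procedure, per the labels' protocols. Alignment and counting tools named, per the submitters' processing notes, are HISAT2 and HTSeq; for their versions, the build, the annotation and the strand setting, the sources used here give nothing. Raw counts were deposited by the authors as 1 table, with 27427 genes and 30 columns, all assigned by title. No 2 replicates agreed within sampling noise (chi-square per degree of freedom 7.35 to 118). Totals are 17299247 to 23261097 per library. Intervals and floors cover counting error only.

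CPM used column totals. Tests used edgeR 4.0.16 in R 4.3.3: filterByExpr (minimum count 10, total 15), TMM, 1 mean for each of 10 groups over all 30 libraries, robust quasi-likelihood F tests, two-sided, calls at a Benjamini-Hochberg adjusted p under 0.05. Standard errors were derived from the F statistic (absolute log2 change divided by its root). The test was run on simulated counts for YMR day 5 to day 35 only, with changes planted in genes above a minimum level. That run does not bear on calls that rest on few reads. Alternatives were RLE size factors, total-count scaling, DESeq2 1.42.0, no filter, a replicate block, only the compared groups, a 2-fold minimum, single libraries left out and other forms of the rule.

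The 29 genes were chosen with earlier results of these data known. Genes described singly follow a rule on ratio, level and size of change (at least 10 CPM in a group for changes, 2 genes per direction for day 5 to day 35 and 1 per step). The others were named after their values were seen. Lists by gene function were not applied, since no identifier matched the gene table used here. Peak days with TMM-scaled libraries and 1 ratio without 1 library were added after the data had been seen.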

Additional observations from a re-analysis of the deposited data

Results flagged for a closer look

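In CPM, 2 of the 29 genes had every day 35 library on 1 side of the day 5 libraries in YMR. In HDB every day 35 library lay on the other side. The difference between the cultivars was not tested in either case, because it is made of values the rule used. For MELO3C015594 the YMR libraries rose from between 9.73 and 21.2 CPM to between 36.8 and 38.0. The HDB libraries went from between 3.29 and 4.0 CPM to between 1.97 and 3.23. This HDB order depends on the scaling, as the mean TMM factor in HDB was 1.149 on day 5 and 1.005 on day 35. The log2 ratio of YMR to HDB was 1.5 higher on day 35 than on day 5, while the HDB change alone, -0.34 on the log2 scale, was not called (edgeR adjusted p = 0.33). For MELO3C001276 the YMR libraries fell from between 4.68 and 5.56 CPM to between 1.08 and 2.71, and HDB went from 1 count over 3 libraries to 7. Its log2 ratio changed by -1.18 (day 35 minus day 5), and the HDB side rests on those 8 reads.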

How the results depend on the processing

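The 19 changes that the naming rule chose by size (at least 10 CPM in a group) kept their direction and call under RLE size factors, total-count scaling, DESeq2, no low-count filter, the replicate block and only the compared groups. With single libraries left out, 2 of these 19 calls were lost, as given above. Other genes named in the text did lose calls, MELO3C001276 and MELO3C010327 among them, as the counts below show. Nothing in the labels pairs equal replicate numbers. Deviations of same-numbered libraries correlated at -0.27 to 0.102, and at most 2 of the 6 libraries of a comparison correlated best with their own number, so the numbers were not taken as pairs, and with the replicate block the day 5 to day 35 counts stayed at 3 rises and 10 falls in HDB and 8 and 11 in YMR, HDB rises from day 5 to day 15 went from 4 to 5 and YMR rises from day 25 to day 30 from 2 to 3. RLE size factors, no filter and the block moved no count of the 29 by over 1.5 times. When the fit held the compared groups alone, HDB falls from day 5 to day 15 went from 7 to 4, HDB rises from day 25 to day 30 from 1 to 0, HDB rises and falls from day 5 to day 35 from 3 and 10 to 1 and 6, YMR rises from day 25 to day 30 from 2 to 4, YMR falls from day 30 to day 35 from 3 to 7, and opposite calls from 1 to 0. Total-count scaling gave 3 YMR rises for day 5 to day 15 (5 with TMM), 13 YMR falls for day 15 to day 25 (7), 4 YMR rises for day 25 to day 30 (2) and 5 YMR rises for day 5 to day 35 (8). It moved the median change of all genes in YMR from -0.19 to -0.59 over the whole span. DESeq2 gave 4 YMR rises for day 25 to day 30, 5 YMR falls for day 30 to day 35 (3), 2 genes rising in both cultivars (1) and 0 opposite. A 2-fold minimum gave 2 HDB rises (4) and 3 YMR rises (5) for day 5 to day 15, 1 HDB fall (2) for day 30 to day 35 and 0 opposite genes. The cause of these moves was not tested.

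With single libraries left out, HDB rises lay between 2 and 5 for day 5 to day 15 and between 2 and 6 for day 5 to day 35, and HDB falls between 1 and 3 for day 30 to day 35. YMR rises lay between 3 and 6 for day 5 to day 15 and between 1 and 2 for day 30 to day 35, and YMR falls between 3 and 6 for day 25 to day 30 and between 1 and 4 for day 30 to day 35. Genes rising in both numbered 1 to 3 and opposite genes 0 to 1. The number of genes meeting the rule lay between 25 and 29. It was 60 with a ratio of at least 1.5, 9 with 3 and 15 with 2 CPM added. With TMM-scaled libraries it was 27, MELO3C010872 and MELO3C015594 dropping out. For genes under 1 CPM in HDB, depth limits what a change there can show.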
